A study of Mus musculus with 20 samples.

Results

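The 10 genes described here, Atf4, Ddit3, Chac1, Trib3, Asns, Psat1, Phgdh, Shmt2, Mthfd2 and Sesn2, were taken by symbol from a table of 21963 genes, and 10 of 10 passed the filter on low counts that 11707 genes passed in all. They were measured by RNA-seq in bone marrow-derived macrophages (BMDMs) in 5 groups: WT untreated (n = 4), WT with zymosan (n = 5), WT with zymosan after loading with BAPTA-AM (n = 4), Mcu-/- untreated (n = 4) and Mcu-/- with zymosan (n = 3). Zymosan, a yeast cell wall particle that macrophages engulf, was given for 3 h, and BAPTA-AM is a cell-permeant Ca2+ chelator. The study's methods give 2 particles per cell and 10 uM BAPTA-AM for its quantitative PCR. They state no dose for RNA-seq, so these doses are carried over. Mcu encodes the pore of the mitochondrial Ca2+ uniporter, and per the study Mcu-/- cells came from mice with a floxed Mcu and a Cx3cr1-cre driver (a driver active in macrophages and their relatives). All groups were grown from marrow in L929-conditioned medium. WT and Mcu-/- mice of both sexes were 15 to 25 weeks old per the study's methods, and the sex and age of each library are not given in the sources used here.

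ATF4 is the transcription factor at the end of the integrated stress response. Kinases that sense unfolded protein in the endoplasmic reticulum (ER), missing amino acids, missing haem, viral RNA or failing mitochondria phosphorylate the translation factor eIF2, which lowers most protein synthesis while favouring translation of Atf4 mRNA. ATF4 protein then binds composite sites with C/EBP relatives and raises genes for amino acid synthesis and uptake, serine and folate one-carbon metabolism, and stress regulators. Because much of this control is at translation, the level of Atf4 mRNA is not a measure of ATF4 protein, which was not measured in this table.

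The promoters of 3 genes are shown because they carry the core letters of such a composite site, TGATGNAA. It was searched on both strands of the RefSeq windows (GRCm38.p6, 250 bases before to 50 after each annotated start), together with the cyclic AMP response element TGACGTCA and its variant TGACGCAA. No stretch can match more than 1 of these on the same strand, since their letters differ. In 11 windows of the 10 genes, matches were in Chac1, Asns and Trib3. TGATGNAA was in 3.97% of all 32851 promoter windows of this length, TGACGCAA in 0.490% and TGACGTCA in 1.79%. A match is a description of letters and not a bound site. Capitals mark the matches, and each stretch is written 5′ to 3′ on the gene's strand.
Chac1, the 250 bases before the start, chr2:119350992-119351241, plus strand: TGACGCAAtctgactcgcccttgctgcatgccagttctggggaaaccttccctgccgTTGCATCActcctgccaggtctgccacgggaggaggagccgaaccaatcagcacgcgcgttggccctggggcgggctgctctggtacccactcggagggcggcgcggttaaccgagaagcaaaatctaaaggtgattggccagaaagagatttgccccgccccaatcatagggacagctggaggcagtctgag
Asns, the 250 bases before the start, chr6:7693210-7693459, minus strand: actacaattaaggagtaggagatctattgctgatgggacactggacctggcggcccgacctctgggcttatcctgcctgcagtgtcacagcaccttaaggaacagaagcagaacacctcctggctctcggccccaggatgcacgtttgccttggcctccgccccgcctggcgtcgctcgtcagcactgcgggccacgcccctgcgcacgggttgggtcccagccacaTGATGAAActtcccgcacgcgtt
Trib3, 30 bases around the match, chr2:152344028-152344057, minus strand: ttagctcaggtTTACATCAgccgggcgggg
In Chac1 the first capitals are TGACGCAA and the second are TTGCATCA, the core read on the other strand, starting 193 bases before the start. In Asns the core TGATGAAA starts 23 bases before the start, and in Trib3 TTACATCA, again on the other strand, starts 14 bases past it. These starts are RefSeq's, and in the GENCODE M21 annotation the Asns gene begins farther upstream, so that its match lies inside the annotated gene. The Trib3 gene begins farther downstream there, so that its match lies upstream of the annotated gene. No match was in the windows of the other 7 genes, which says only that these letters are absent there.

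Total counts were 14.4 to 23.95 M per library. Mcu itself was at 149, 143, 131, 135 and 126 normalized counts in WT with zymosan and at 75.2, 74.6 and 82 in Mcu-/- with zymosan, a lower level that did not reach 0 (log2 fold change -0.82 ± 0.14 (SE), adjusted p = 9.61e-05). Normalized counts are CPM, counts scaled to a common library size by the TMM method, brought back to the scale of an average library. Macrophage markers were high in every library, with a sum over 10 genes of 9233 to 17116 CPM. Replicate 4 of Mcu-/- untreated stood apart from its group: its chi-square per gene against the other 3 was 217 to 225, against 1.60 to 6.53 for the 28 other replicate pairs. It also had the lowest macrophage marker sum, 9233 CPM against 14113 to 17116 in WT libraries and 10960 to 11331 in Mcu-/- with zymosan. The markers were split, with 5 of 10 above and 5 below every WT untreated library in replicate 4. Lyz2 and Adgre1 were at 2823 and 2462 CPM in it, against means of 7201 and 4113 in WT untreated. Cd68 and Fcgr1 were at 971 and 518 CPM in it, against 223 and 109. With zymosan, Lyz2 had a mean of 3242 in Mcu-/- and 8183 in WT cells, and Cd68 of 1158 and 309. Since all libraries share 1 estimate of spread in the model, the counts of calls among the 10 genes are given with and without replicate 4. For the gene lists further on, most counts are given with all libraries only. Replicates are labelled biological, with no statement of separate mice, so p-values measure the spread between these libraries.

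Markers of other cell types differed between Mcu-/- and WT cells with zymosan and in Mcu-/- untreated replicate 4. Over 6 fibroblast markers the summed level was 44.0 to 52.3 CPM in Mcu-/- with zymosan, 4.71 to 6.68 in WT with zymosan and 28.3 in Mcu-/- untreated replicate 4, against 2.67 to 4.11 in WT untreated and 1.10 to 2.81 in the other 3 Mcu-/- untreated libraries. Most of this sum was collagen genes. With zymosan, Col1a1 had a mean of 21.7 CPM in Mcu-/- and 2.03 in WT cells, Col1a2 of 23.2 and 2.19, and Col3a1 of 3.73 and 0.906. The others were near the floor, with Dcn at 0.286 and 0.138, Pdgfra at 0.111 and 0.143, and Lum at 0 and 0.0736. Over 10 neutrophil markers the summed level was 0.547 to 0.765 CPM in Mcu-/- with zymosan and 4.00 to 5.82 in WT with zymosan, and 2.48 to 3.16 in Mcu-/- untreated replicates 1, 2 and 3. Over 8 dendritic cell markers, most of it Bst2, it was 735 to 760.2 against 259 to 283. Lymphocyte markers summed to 2.66 to 6.48 CPM over all libraries and erythroid and mast cell markers to 0.207 to 1.02. No macrophage marker was at 0 in any group. Of 10 neutrophil markers, 3 were at 0 in every library of Mcu-/- with zymosan, and 8 in the 1 library of Mcu-/- untreated replicate 4. These markers were near the floor in WT cells too: with zymosan, 1 was at 0 and 6 had at most 3 counts in every library. The part of the cell type markers in the changes of the 10 genes was not tested. In bulk RNA fewer cells of a type and less RNA per cell cannot be told apart.

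In GENCODE M21 (mm10), the genes lie with their strand as follows: Atf4 at chr15:80255184-80257541 (plus), Ddit3 at chr10:127290774-127296288 (plus), Chac1 at chr2:119351229-119354381 (plus), Trib3 at chr2:152337422-152344032 (minus), Asns at chr6:7675169-7693254 (minus), Psat1 at chr19:15904678-15947337 (minus), Phgdh at chr3:98313170-98339990 (minus), Shmt2 at chr10:127517123-127522444 (minus), Mthfd2 at chr6:83305691-83325908 (minus) and Sesn2 at chr4:132492032-132510501 (minus). Per kilobase of exon, the order of levels in WT untreated cells was Atf4 at 89.2 ± 1.01 CPM per kb (SD, n = 4), Asns at 35.3 ± 0.707, Mthfd2 at 30.5 ± 0.969, Shmt2 at 21.2 ± 1.16, Psat1 at 18.2 ± 0.628, Ddit3 at 16.3 ± 0.725, Sesn2 at 14.2 ± 0.717, Phgdh at 9.57 ± 0.367, Trib3 at 5.53 ± 0.560 and Chac1 at 5.25 ± 0.585. Trib3 and Chac1 overlapped between libraries, and no other neighbours in this order did. The spread between replicates was small: without Mcu-/- untreated replicate 4, the coefficient of variation of a gene within a group had a median of 3.17% to 4.73% across the 5 groups.

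**Figure D1:**
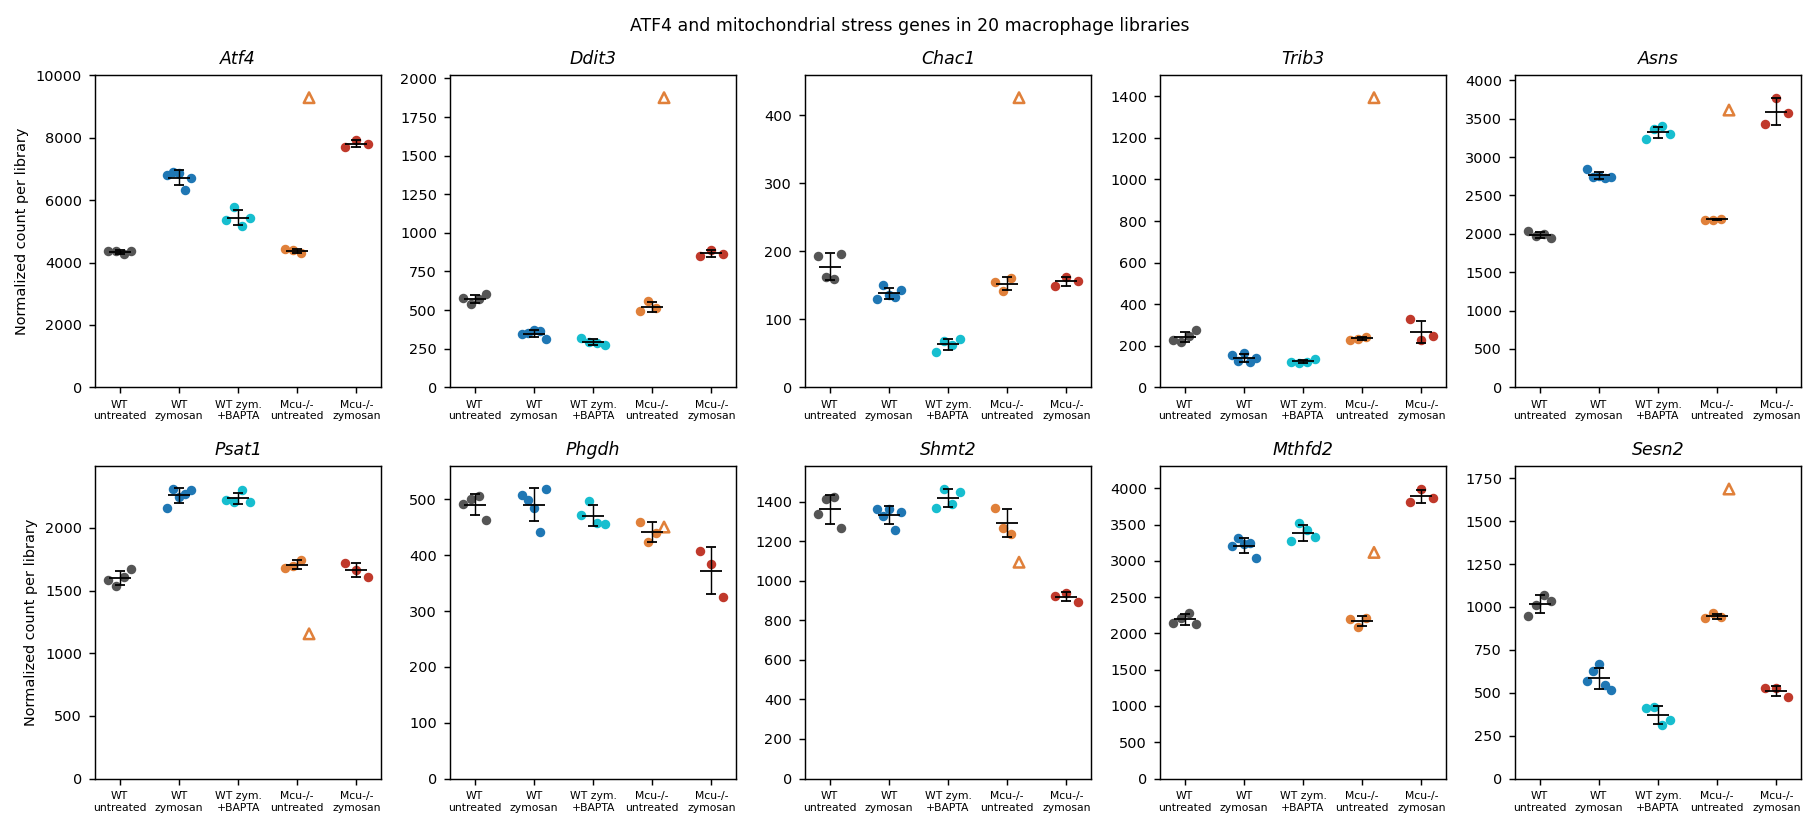
Normalized counts of the 10 genes (vertical axes, from 0) in each of 20 libraries, by group (horizontal axes). Points are libraries, black bars are the group mean and SD, and the open triangle is Mcu-/- untreated replicate 4, which is left out of its group's bar. With zymosan, Ddit3 sits at 848 to 891 in Mcu-/- cells and at 310 to 368 in WT cells. The triangle lies above or below the other 3 libraries of its group in 9 of 10 panels. Most genes set this library apart: it lay above every WT untreated library for 44.6% of all 11707 genes tested and below every one for 38.5%.

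The first question was how these genes responded to zymosan in WT cells. Atf4 and 3 enzymes, Asns, Psat1 and Mthfd2, rose 1.39- to 1.55-fold, while Ddit3 and Sesn2 fell to 0.604- and 0.575-fold. In all, 4 of 10 were called higher and 2 lower at an adjusted p under 0.05, where 32.4% of all genes tested were called higher and 36.8% lower (without Mcu-/- untreated replicate 4, 4 higher and 4 lower, against 37.2% and 41.3%). The median log2 fold change of the 10 genes was -0.016, beside -0.044 over all genes.

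Atf4 was at 4362, 4369, 4264 and 4357 in untreated WT libraries and at 6818, 6887, 6879, 6324 and 6703 with zymosan (log2 fold change 0.63 ± 0.16 (SE), adjusted p = 0.00192). The groups did not overlap. Asns, asparagine synthetase, which makes asparagine from aspartate and glutamine, went from 2038, 1971, 1999 and 1945 to 2841, 2741, 2755, 2731 and 2739 (log2 fold change 0.47 ± 0.11 (SE), adjusted p = 0.000738). Psat1, phosphoserine aminotransferase in the serine pathway, went from 1588, 1535, 1609 and 1668 to 2160.3, 2310.4, 2246, 2273 and 2304 (log2 fold change 0.50 ± 0.082 (SE), adjusted p = 2.37e-05). Mthfd2, a mitochondrial folate dehydrogenase and cyclohydrolase that is often low in resting adult cells, was at 2129.7 to 2279 untreated and 3036 to 3317 with zymosan (log2 fold change 0.55 ± 0.082 (SE), adjusted p = 7.92e-06). Each of these 4 genes was higher in 5 of 5 zymosan libraries than in any untreated one.

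Among the stress regulators, Ddit3 and Sesn2 fell. Ddit3, which encodes CHOP, a C/EBP relative that acts in prolonged ER stress, was at 576, 542, 574 and 605 untreated and at 344, 348, 368, 363 and 309.7 with zymosan (log2 fold change -0.73 ± 0.29 (SE), adjusted p = 0.0334). Its call was lost when any of 6 single WT libraries was left out (adjusted p 0.0520 to 0.0638), and without Mcu-/- untreated replicate 4 the adjusted p was 2.02e-14. Sesn2, sestrin 2, a leucine sensor that restrains the growth kinase complex mTORC1, was at 949.8, 1009.8, 1072 and 1035 and then at 566, 628, 665, 545 and 519 (log2 fold change -0.80 ± 0.15 (SE), adjusted p = 7.68e-05). Trib3, a pseudokinase that feeds back on ATF4 and CHOP, and Chac1, which degrades glutathione, had no overlap between the groups either but were not called with all libraries. Trib3 had a log2 fold change of -0.77 (adjusted p = 0.122, and 9.27e-09 without Mcu-/- untreated replicate 4), and Chac1 of -0.36 (adjusted p = 0.206, and 0.000805 without it). Phgdh, the enzyme that opens serine synthesis, and Shmt2, the mitochondrial serine hydroxymethyltransferase, had log2 fold changes near 0, 0.00067 ± 0.061 and -0.032 ± 0.053 (SE), in overlapping groups.

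The second comparison asked how Mcu-/- cells differed from WT cells after zymosan. Ddit3 was 2.50-fold higher in Mcu-/- cells, Asns 1.30-fold and Mthfd2 1.21-fold, while the serine pathway enzymes Psat1, Phgdh and Shmt2 were at 0.736-, 0.759- and 0.690-fold. These were 3 of 10 genes called higher and 3 lower, where 31.8% of all genes tested were called higher and 30.3% lower. The share called was near that of all genes in both directions. Without Mcu-/- untreated replicate 4, 5 genes were called higher and 4 lower, against 36.4% and 33.7% of all genes. The median log2 fold change of the 10 genes was 0.19, beside 0.016 over all genes.

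Ddit3 was at 344, 348, 368, 363 and 309.7 in the 5 WT libraries and at 848, 891 and 862 in the 3 Mcu-/- libraries (log2 fold change 1.32 ± 0.31 (SE), adjusted p = 0.00123). The lowest Mcu-/- library lay above the highest WT library by more than the highest WT value itself. Mars, a tRNA synthetase gene on the other strand whose exons overlap those of Ddit3, was at 1279.8 to 1433 and 1248 to 1366 in the same groups. Whether counting used strand is not given in the sources used here. Trib3 was at 156, 125, 166, 119.7 and 141 in WT and 328, 226 and 245 in Mcu-/- libraries, again with no overlap, but its fold of 1.88 was not called with all libraries (log2 fold change 0.91 ± 0.47 (SE), adjusted p = 0.0991). It was called without Mcu-/- untreated replicate 4 (log2 fold change 0.91 ± 0.11 (SE), adjusted p = 2.3e-09). Atf4 showed the same pattern at a smaller size, with 6818, 6887, 6879, 6324 and 6703 in WT and 7711, 7936 and 7792 in Mcu-/- libraries (log2 fold change 0.22 ± 0.17 (SE), adjusted p = 0.287, and adjusted p = 1.32e-07 without Mcu-/- untreated replicate 4). Chac1 overlapped between the genotypes, at 130.3 to 150.3 and 149 to 162 (adjusted p = 0.601).

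Among the enzymes, Asns was at 3429, 3774 and 3578 in Mcu-/- libraries, above the 2731 to 2841 of WT (log2 fold change 0.38 ± 0.12 (SE), adjusted p = 0.00845). Mthfd2 was at 3806, 3991 and 3873, above 3036 to 3317 in WT (log2 fold change 0.28 ± 0.088 (SE), adjusted p = 0.0104). These are an enzyme of asparagine synthesis and a mitochondrial folate enzyme. The 3 that were lower act in making serine or in splitting it to glycine. Psat1 was at 1719.6, 1660.0 and 1609.7, below 2160.3 to 2310.4 in WT (log2 fold change -0.44 ± 0.090 (SE), adjusted p = 0.000377). Phgdh was at 408, 384 and 326, below 442 to 519 (log2 fold change -0.40 ± 0.069 (SE), adjusted p = 8.23e-05). Shmt2 was at 925, 937 and 893, below 1255 to 1364 (log2 fold change -0.54 ± 0.060 (SE), adjusted p = 8.61e-07). Shmt2 shares exon positions with Ndufa4l2 on the other strand, which had 0 to 5 counts in any library; the annotation also holds a processed pseudogene of Phgdh, with which reads could be shared. Sesn2 overlapped, at 474 to 525 against 519 to 665, and was not called with all libraries (adjusted p = 0.293, and 0.0142 without Mcu-/- untreated replicate 4). Of the 4 members in serine and folate metabolism, 3 were thus lower than in WT and Mthfd2 was higher.

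**Figure D2:**
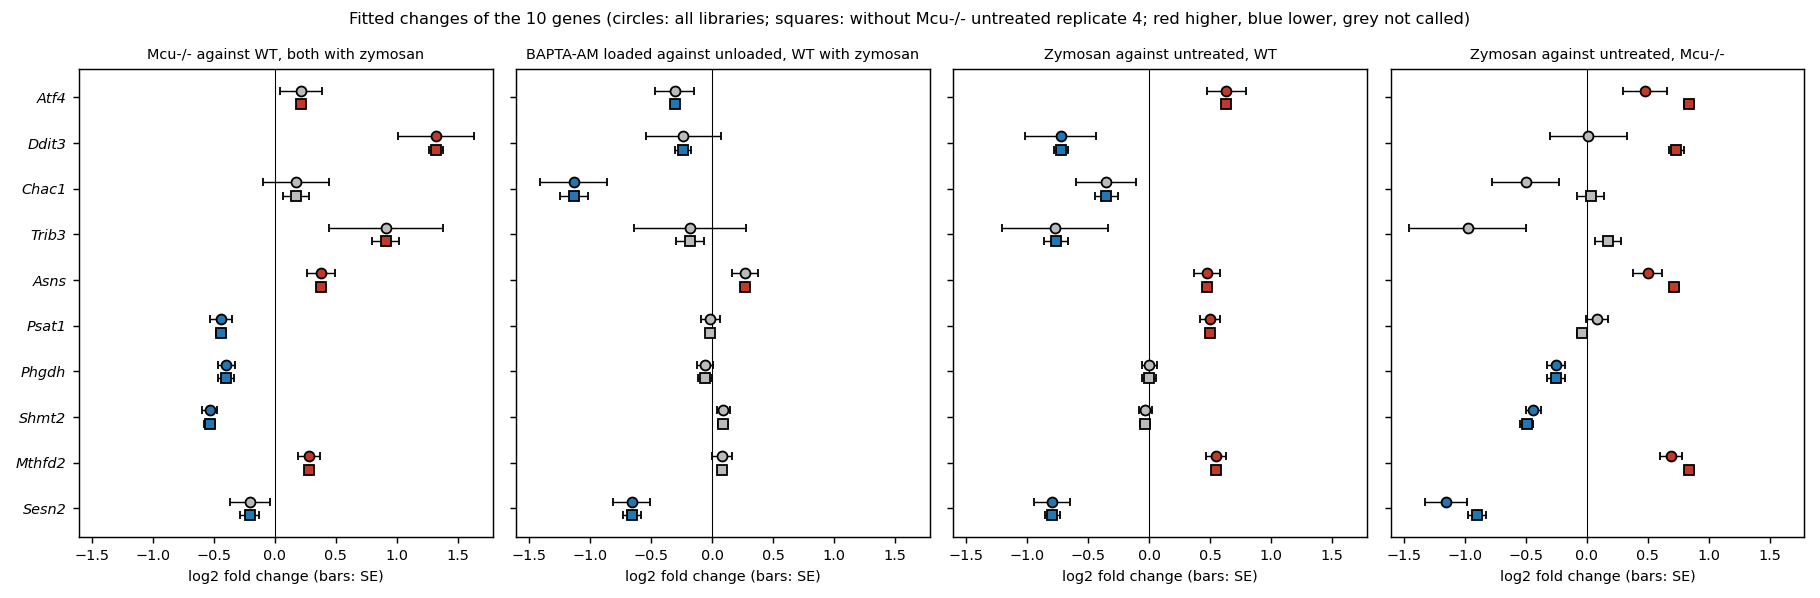
Fitted log2 fold changes of the 10 genes (horizontal axes, bars are SE) in 4 comparisons, with all 20 libraries (circles) and without Mcu-/- untreated replicate 4 (squares). Red is called higher, blue lower and grey not called at an adjusted p under 0.05. In the first 3 comparisons the squares lie at nearly the same values as the circles with shorter bars, while in Mcu-/- cells with zymosan against untreated the Ddit3 value moves from 0.015 to 0.73.

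The third comparison asked what loading with BAPTA-AM did to WT cells given zymosan. Chac1 fell to 0.456-fold and Sesn2 to 0.633-fold, and no gene of the 10 was called higher. That was 0 of 10 called higher and 2 lower, where 6.43% of all genes tested were called higher and 6.33% lower. Without Mcu-/- untreated replicate 4, 1 was called higher and 4 lower, against 15.3% and 16.5%. The median log2 fold change of the 10 genes was -0.12, beside 4.86e-04 over all genes. This comparison and the preceding one share the 5 WT zymosan libraries, so their values are given side by side and no overlap is drawn from them.

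Chac1 was at 130.3, 150.3, 136, 132 and 143 without and at 51.7, 67.5, 61.6 and 70.9 with BAPTA-AM (log2 fold change -1.13 ± 0.27 (SE), adjusted p = 0.00936). Its 4 loaded libraries were the lowest of all 20. Sesn2 was at 566, 628, 665, 545 and 519 and at 410.1, 418, 310.4 and 339.8 (log2 fold change -0.66 ± 0.15 (SE), adjusted p = 0.00736), also with the 4 loaded libraries as the lowest of all. Atf4 was at 5367, 5771, 5187 and 5425 with BAPTA-AM, between the untreated and the unloaded zymosan libraries. Its groups did not overlap (log2 fold change -0.31 ± 0.16 (SE), adjusted p = 0.251), and it was called without Mcu-/- untreated replicate 4 (log2 fold change -0.31 ± 0.030 (SE), adjusted p = 1.08e-10). Asns, at 3242, 3367, 3402 and 3295, lay above the unloaded libraries (log2 fold change 0.27 ± 0.11 (SE), adjusted p = 0.116, and log2 fold change 0.27 ± 0.030 (SE), adjusted p = 4.06e-09 without Mcu-/- untreated replicate 4). Ddit3 was at 319.9, 296, 287 and 275, overlapping the unloaded libraries (log2 fold change -0.24 ± 0.30 (SE), adjusted p = 0.715, and adjusted p = 0.0047 without it). The other 5 genes, Trib3, Psat1, Phgdh, Shmt2 and Mthfd2, were not called in either fit, with log2 fold changes of -0.18 to 0.091, and of these the groups of Shmt2 did not overlap.

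Side by side, Ddit3 was at 347 ± 23 in WT with zymosan (SD, n = 5), 294 ± 19 with BAPTA-AM (n = 4) and 867 ± 21.9 in Mcu-/- cells (n = 3). Asns was at 2761 ± 45.5, 3326 ± 71.6 and 3594 ± 173, above the unloaded WT level in both other groups. Chac1 was at 138 ± 8.26, 62.9 ± 8.42 and 156 ± 6.33. Shmt2 was at 1331 ± 44.6, 1417 ± 47 and 918 ± 22.5.

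Without zymosan, the 2 genotypes were compared for a difference already present at rest. None of the 10 genes was called in edgeR's quasi-likelihood test, where 0.128% of all genes tested were called higher and 0.222% lower. At an unadjusted p under 0.05 in that test there were 5 of 10, beside 1743 of all 11707 genes. DESeq2's Wald test also called 0 of 10. The fitted differences moved without replicate 4 of Mcu-/- untreated, for Trib3 from a log2 of 1.11 to -0.036 and for Ddit3 from 0.58 to -0.14. Leaving it out, 1 gene was called, Asns, against 1.53% of all genes called higher and 1.83% lower. Asns was then at 2181, 2184 and 2196 in Mcu-/- libraries and 2038, 1971, 1999 and 1945 in WT (log2 fold change 0.14 ± 0.035 (SE), adjusted p = 0.0182), a 1.10-fold difference with no overlap. Mios, 0.516 Mb from Asns on chromosome 6, was lower in Mcu-/- untreated cells with all libraries (log2 fold change -0.36 ± 0.075 (SE), adjusted p = 0.0375) and without replicate 4 (log2 fold change -0.33 ± 0.075 (SE), adjusted p = 0.00638). With zymosan, Mios was lower in Mcu-/- than in WT cells (log2 fold change -0.85 ± 0.082 (SE), adjusted p = 1.5e-07). In WT cells given zymosan it was higher with BAPTA-AM (log2 fold change 0.31 ± 0.071 (SE), adjusted p = 0.00673). No other gene of that stretch is given here, and any link between Mios and Asns was not tested.

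In replicates 1, 2 and 3 of Mcu-/- untreated, the other 9 members were not called against WT, although the libraries of Psat1 and Phgdh did not overlap those of WT. Psat1 was at 1680.4, 1694 and 1745 against 1535 to 1668 in WT, and Phgdh at 459.5, 424 and 440.3 against 464 to 506. Atf4 was at 4422, 4414 and 4305 against 4264 to 4369 in WT, Ddit3 at 495, 558 and 512 against 542 to 605, and Trib3 at 228, 234 and 243 against 219 to 275. The 95% range of the log2 difference from WT, taken as 1.96 SE on either side, was -0.052 to 0.080 for Atf4, -0.25 to -0.021 for Ddit3 and -0.23 to 0.16 for Trib3 without replicate 4.

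In replicate 4, Trib3 was at 1394, Ddit3 at 1875, Chac1 at 426 and Atf4 at 9286, which were 5.76, 3.27, 2.40 and 2.14 times the WT untreated mean. Each of these was the highest of all 20 libraries, those with zymosan included. Sesn2, at 1687, was also the highest of all, Asns was at 3613 and Mthfd2 at 3117. Psat1 at 1155 was the lowest of all libraries, and Shmt2 was at 1093. Of the 10 genes, 9 lay on the same side of the WT untreated mean in this library as Mcu-/- cells lay of WT cells with zymosan, with Sesn2 as the exception, and over all genes tested the share was 78.7%. In replicates 1, 2 and 3 the same count was 5, 5 and 6 of 10, beside 50.9%, 49.5% and 50.7% over all genes. Ppp1r15a, the gene of the eIF2 phosphatase subunit GADD34 and strongly raised by zymosan in WT cells, was at 507 in it, 156, 175 and 175 in replicates 1, 2 and 3, and 15159 to 19425 in WT with zymosan. Mcu was at 83.4 in it, 0.552 times the WT mean.

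**Figure D3:**
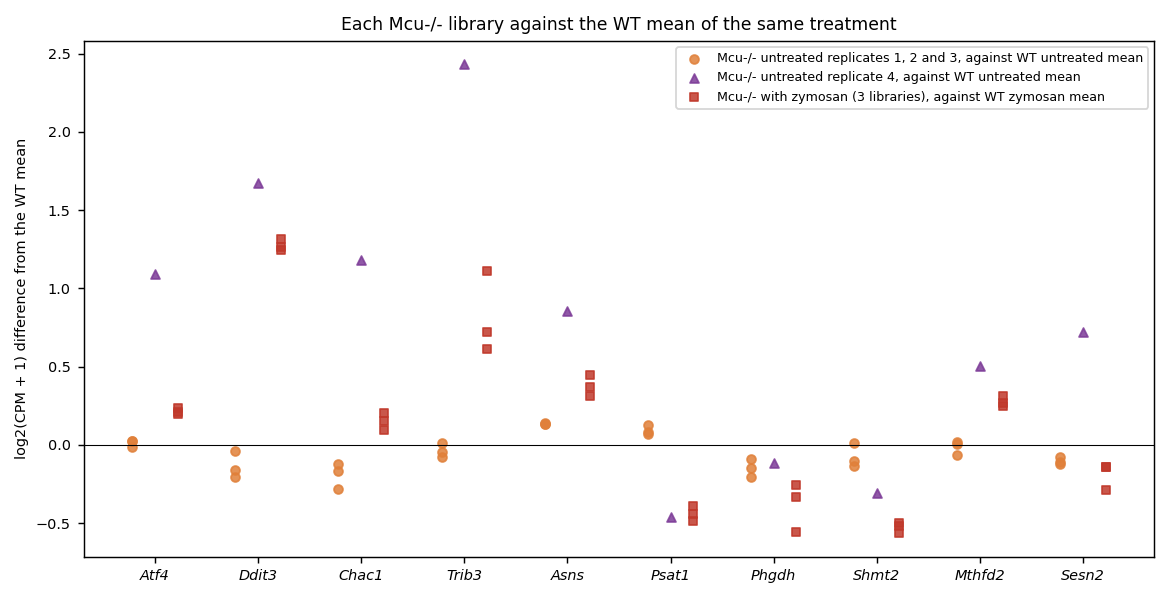
Difference of each Mcu-/- library from the WT mean of the same treatment, in log2(CPM + 1) (vertical axis), for the 10 genes (horizontal axis). Circles are Mcu-/- untreated replicates 1, 2 and 3, triangles replicate 4, and squares the 3 Mcu-/- zymosan libraries. The triangles lie on the same side of 0 as the squares for 9 of 10 genes, reaching 2.43 for Trib3, and the circles stay within 0.29 of 0.

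In Mcu-/- cells, zymosan against untreated gave 3 genes called higher and 3 lower with all libraries, where 34.3% of all genes tested were called higher and 39.4% lower. Atf4, Asns and Mthfd2 rose and Phgdh, Shmt2 and Sesn2 fell. Without replicate 4, 4 were called higher and 3 lower, against 39.2% and 42.4%, with Ddit3 as the added rise (log2 fold change 0.73 ± 0.061 (SE), adjusted p = 8.66e-14). Ddit3 with all libraries had a log2 fold change of 0.015 ± 0.32 (SE). The call of Atf4 was lost when any of 5 single libraries other than replicate 4 was left out (adjusted p 0.0503 to 0.0787), while without replicate 4 its values were 4422, 4414 and 4305 untreated and 7711, 7936 and 7792 with zymosan (log2 fold change 0.84 ± 0.036 (SE), adjusted p = 8.16e-23).

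The difference between the genotypes' zymosan responses was tested as an interaction. With all libraries, 0 of 10 genes were called higher and 3 lower, Psat1 (log2 fold change -0.41 ± 0.12 (SE), adjusted p = 0.0151), Phgdh (log2 fold change -0.25 ± 0.094 (SE), adjusted p = 0.043) and Shmt2 (log2 fold change -0.40 ± 0.081 (SE), adjusted p = 0.00118), where 15.2% of all genes tested were called higher and 20% lower. The call of Phgdh was lost when any of 12 single libraries was left out, and its adjusted p reached 0.157. Psat1 rose with zymosan in WT and had no called change in Mcu-/- cells. Shmt2 fell in Mcu-/- cells and was not called in WT. Without replicate 4 the count was 6 higher and 3 lower, against 31.0% and 29.3% of all genes. Ddit3 then had the largest interaction of the 10 (log2 fold change 1.46 ± 0.084 (SE), adjusted p = 5.44e-18), with means of 574 ± 25.6 and 347 ± 23 in WT and of 522 ± 32.3 and 867 ± 21.9 in Mcu-/- cells (± SD), untreated and with zymosan. Trib3 (log2 fold change 0.94 ± 0.15 (SE), adjusted p = 8.64e-07), Chac1 (log2 fold change 0.38 ± 0.14 (SE), adjusted p = 0.0209), Mthfd2, Asns and Atf4 were the others called higher, the last 3 at log2 values of 0.29, 0.24 and 0.20. With all libraries these 6 had adjusted p of 0.189 to 0.923, and Atf4, Chac1 and Trib3 then had values below 0 (-0.15, -0.14 and -0.20). Sesn2 fell in both genotypes and its interaction was not called in either fit (adjusted p = 0.222 and 0.378).

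Gene lists around the pathway were written from general knowledge with earlier results of these data known. In Mcu-/- against WT with zymosan, ER chaperones and degradation factors had 15 of 24 genes called higher and 4 lower, with a median log2 fold change of 0.30. Creld2 rose from 821 ± 14.2 to 1633 ± 31 normalized counts (log2 fold change 0.99 ± 0.18, adjusted p = 0.000108). Dnajb9, a co-chaperone of the ER, rose by 0.93, and Ern1, the ER stress sensor IRE1, by 0.88 on the log2 scale. Mitochondrial chaperones and proteases had 12 of 20 called higher and 2 lower (median 0.16), led by the inner membrane protease gene Afg3l2 (0.73) and the mitochondrial chaperone genes Dnaja3 (0.66) and Hspa9 (0.63). Both lists' shares called higher stood above the 31.8% of all genes, and no test of the lists was made.

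Upstream of ATF4, the eIF2 kinases, eIF2B and phosphatase subunits had 8 of 18 genes called higher and 5 lower in the same comparison. For this and the following lists the shares over all genes were 31.8% higher and 30.3% lower, and several lists were close to them. Impact, an inhibitor of the amino acid sensing kinase GCN2, had a log2 fold change of -1.04, and Eif2ak1, the kinase HRI that relays mitochondrial stress, was higher by 0.40 (adjusted p = 9.04e-05). The bZIP partners and relatives had 6 of 15 higher and 6 lower. The partners Cebpb (-1.28) and Cebpd (-1.89) and the AP-1 relative Batf (-1.96) were the largest changes named, each lower in Mcu-/- cells.

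Other ATF4 targets were mixed, with 10 of 29 higher and 8 lower and a median of 0.079. Gadd45a rose by 1.63 and the autophagy receptor gene Sqstm1 by 1.57, while Bbc3, which encodes the apoptosis inducer PUMA, was lower (-1.84). Amino acid transporters had 8 of 16 higher and 5 lower: Slc7a11, the cystine importer, was at 3135 ± 189 in WT and 7662 ± 108 in Mcu-/- cells (log2 1.29 ± 0.31, adjusted p = 0.00151), and its partner chain Slc3a2 rose by 0.97. Cytosolic aminoacyl-tRNA synthetases had 8 of 20 higher and 4 lower, with Dars (0.45) and Eprs (0.42) higher and Vars (-0.34) lower.

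Serine, glycine and folate enzymes had 9 of 25 called higher and 10 lower (median -0.12). Mtr, methionine synthase, was at 3293 ± 76.6 in WT and 1159.8 ± 16.2 in Mcu-/- cells, and Mat2a (-0.64) was also lower. DNA replication genes had 3 of 19 higher and 12 lower (median -0.44), with Rrm2, a subunit of ribonucleotide reductase, at 545 ± 66 in WT and 72.7 ± 6.72 in Mcu-/- cells. Sestrins and p53 targets had 5 of 17 higher and 6 lower, Fas (-1.94) among the lower.

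In the WT response to zymosan, the largest named changes around the pathway were Slc7a2, an arginine transporter gene, and Ppp1r15a. Slc7a2 rose from 10.5 ± 3.62 to 1791 ± 119 normalized counts (log2 fold change 7.37 ± 0.20). Ppp1r15a, whose product directs dephosphorylation of eIF2, rose from 137 ± 11.3 to 17887 ± 1731 normalized counts (log2 fold change 7.03 ± 0.32). Over all genes 32.4% were called higher and 36.8% lower (37.2% and 41.3% without Mcu-/- untreated replicate 4). Cytosolic aminoacyl-tRNA synthetases had 12 of 20 called higher and 1 lower, with Rars (1.37) as the largest named. ER chaperones had 12 of 24 higher and 3 lower (16 and 5 without Mcu-/- untreated replicate 4), mitochondrial chaperones 10 of 20 and 4, other ATF4 targets 11 of 29 and 7, and amino acid transporters 9 of 16 and 4. Serine, glycine and folate enzymes had 4 of 25 higher and 11 lower, and DNA replication genes 4 of 19 and 11. Atf3, a stress-induced bZIP gene, rose by 2.86, and Cebpa fell by 3.88 on the log2 scale.

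With BAPTA-AM and all libraries in the fit, at most 7 genes of any list were called. Ppp1r15a was at 10062 ± 1210.0 normalized counts, below the unloaded libraries (-0.83 ± 0.23, adjusted p = 0.0227). Nupr1, a stress-induced chromatin protein gene, had a log2 fold change of -0.76, and Mthfd1l, the mitochondrial formate-producing partner of Mthfd2, was higher by 0.68. ER chaperones had 4 of 24 called higher and 0 lower, led by Dnajb9 (0.52). Without Mcu-/- untreated replicate 4 these counts were 11 and 2, those of the bZIP partners went from 1 and 2 to 5 and 6 of 15, and those of sestrins and p53 targets from 1 and 0 to 4 and 8 of 17. Over all genes the shares rose as well, from 6.43% higher and 6.33% lower to 15.3% and 16.5%.

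**Figure D4:**
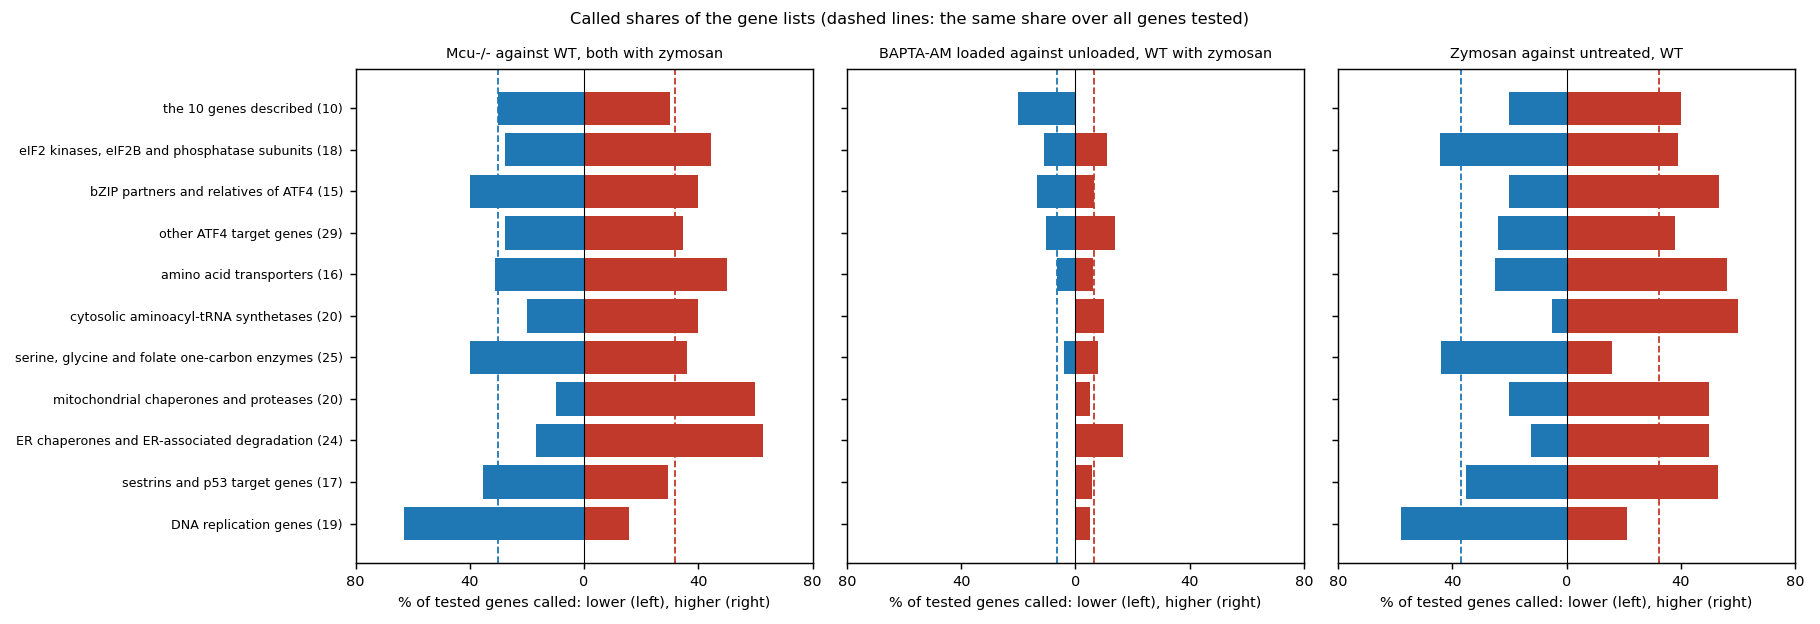
Share of the tested genes of each list called higher (red, to the right) and lower (blue, to the left), in percent, in 3 comparisons, with the number tested in brackets. Dashed lines mark the same shares over all 11707 genes. In Mcu-/- against WT with zymosan, 15 of 24 ER chaperones and 12 of 20 mitochondrial chaperones were called higher, while 3 of the 10 genes were called in each direction.

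The genes whose pattern over 20 libraries was most like each member's, by Pearson's r of log2(CPM + 1), were listed as a description, since the libraries share 5 groups. Atf4 was closest to Fam129b (r = 0.976), Slc38a2, an amino acid transporter gene (0.968), and Xdh (0.959). Ddit3 was closest to Specc1 (0.979), Nt5dc2 (0.977) and Spry2 (0.973). Chac1 was closest to Sirpa (0.945), Kansl1 (0.930) and Kcnn4 (0.923), and Trib3 to Rab7b (0.968), Dennd4c (0.954) and Zfand2a (0.941), which fell to 0.900, 0.861 and 0.810 without Mcu-/- untreated replicate 4. Asns was closest to Stam2 (0.982), Rusc2 (0.982) and Pgam1 (0.975), and Mthfd2 to Canx (0.994), Atp6v1a (0.993) and Ninj1 (0.993). Psat1 was closest to Mtfr2 (0.984), Tmsb10 (0.984) and Rps3a1 (0.980), and Sesn2 to Kif13b (0.961), Mtss1 (0.959) and Plk3 (0.942). All of these are likenesses across groups and carry no test. Shmt2 was closest to Sfxn5 (0.958), Wdr62 (0.957) and Anp32b (0.956). Phgdh had the loosest matches, Tmem8 (0.861), Shmt2 (0.852) and Slc4a2 (0.848), so Shmt2 was the only one of the 10 genes among the closest 3 of another.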

How the data were processed

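RNA-seq of 20 BMDM libraries was analysed from a table of whole-number counts per gene. Per the study's methods and the labels, the authors trimmed reads with cutadapt, aligned them to mm10 with STAR and counted them with HTSeq before the counts were deposited, with FastQC and MultiQC for quality. Versions, annotation and strand setting are not given in the sources used here. Totals were 14.4 to 23.95 M, and 1 CPM after TMM scaling stood for 15.7 to 28.1 counts. Genes passing filterByExpr (11707 of 21963) were scaled by TMM and tested in edgeR 4.0.16 (R 4.3.3) by the quasi-likelihood test with Benjamini-Hochberg adjustment over all genes, with the 5 groups in 1 fit and a threshold of 0.05. The biological coefficient of variation was 12.4%, and 3.56% without Mcu-/- untreated replicate 4. SE is the absolute log2 fold change divided by the root of F.

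Members and lists were chosen with earlier results of these data known. Every member is named. From each list, the 3 called genes with the largest change at 10 CPM or more could be named. The 3 genes nearest in correlation, neighbours of a member and Mcu were also allowed. Mars and Ndufa4l2, named for their overlap with members, fall outside this rule. Alternatives were DESeq2 1.42.0 and its size factors, other filters, the compared groups alone, a replicate block and leaving out each library. On simulated data with 11707 genes, the edgeR step recovered 187 of 200 changed genes with 5 false calls. The simulated libraries had a smaller spread than the fit of the 20 libraries and no outlying library. The share of real changes recovered in the fit of the 20 libraries was not tested. Mcu-/- zymosan libraries are named by their column numbers 3, 4 and 5, which differ from those in their titles.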

Additional observations from a re-analysis of the deposited data

Results flagged for a closer look

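Of 40 gene and group combinations with 4 or 5 libraries, 10 held a library far from the others of its group, where chance gives about 1 in 20. Mcu-/- untreated replicate 4 accounted for 8 of them, so the combinations are not independent. The share of such cases over all genes was not taken. Over all genes tested, this library lay above every WT untreated library for 44.6% and below every one for 38.5%. It was the highest of 4 for Atf4 (9286 normalized counts), Ddit3 (1875), Chac1 (426), Trib3 (1394), Asns (3613), Mthfd2 (3117) and Sesn2 (1687), and the lowest for Psat1 (1155). The others were Atf4 in WT untreated replicate 3, the lowest of 4 at 4264, and Asns in WT zymosan replicate 1, the highest of 5 at 2841.

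The zymosan response differed between Mcu-/- and WT cells for 3 genes by the interaction test with all libraries. The difference, as a log2 fold change of Mcu-/- over WT, was -0.41 for Psat1, -0.25 for Phgdh and -0.40 for Shmt2. Phgdh lost its call without any of 12 single libraries, with no filter beyond 1 count and with the groups alone (adjusted p up to 0.157). With Mcu-/- untreated replicate 4 left out, the count was 6 higher and 3 lower of the 10 genes, against 31.0% and 29.3% of all genes. The cause of these values was not tested.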

How the results depend on the processing

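Of 330 values of single genes under settings other than leaving out a library, 311 kept their direction and side of the threshold, 8 gained a call, 5 lost one and 6 reversed. The reversals were in values near 0 that were not called: Phgdh in WT with zymosan against untreated (-0.0091 with no filter beyond 1 count, -0.016 with at least 10 counts in every library and -0.020 with the replicate block), Shmt2 there (0.0066 with DESeq2's size factors and 0.0058 with its Wald test) and Ddit3 in Mcu-/- zymosan against untreated (-0.0021 with no filter).

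Fitting the BAPTA-AM groups alone called 5 of the 10 genes in place of 2. Over all genes the calls rose as well, from 753 higher and 741 lower of 11707 to 1741 and 1788 of 10973. Leaving out each library, the number called was 6 to 9 for Mcu-/- against WT with zymosan, 2 to 5 for BAPTA-AM, 5 to 8 for WT zymosan, 0 to 1 for Mcu-/- against WT untreated, 5 to 7 for Mcu-/- zymosan against untreated and 2 to 9 for the interaction. Mcu-/- untreated replicate 4 gave the upper end, with 5 for BAPTA-AM, 1 untreated and 9 for the interaction. The shares over all genes rose with it left out too, to 15.3% higher and 16.5% lower for BAPTA-AM. They rose to 1.53% and 1.83% untreated and to 31.0% and 29.3% for the interaction. The interaction of Phgdh lost its call without any of 12 libraries.

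Log2 values that reversed ranged, over libraries left out, from -0.026 to 0.035 for Phgdh in WT zymosan. In Mcu-/- against WT untreated they ranged from -0.14 to 0.77 for Ddit3, -0.21 to 0.48 for Chac1, -0.036 to 1.36 for Trib3, -0.083 to 0.094 for Psat1, -0.014 to 0.20 for Mthfd2 and -0.10 to 0.23 for Sesn2. In Mcu-/- zymosan against untreated they ranged from -0.18 to 0.73 for Ddit3, -0.66 to 0.033 for Chac1, -1.23 to 0.18 for Trib3 and -0.037 to 0.14 for Psat1. For the interaction they ranged from -0.26 to 0.20 for Atf4, -0.31 to 0.38 for Chac1, -0.45 to 0.94 for Trib3 and -0.041 to 0.24 for Asns. The cause was not tested.

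Deviations of same-numbered replicates from their group means had r from -0.117 to 0.106 (24 pairs). Mcu-/- with zymosan was not in this check. In Mcu-/- untreated, replicate 4 sets the deviations of the whole group. BAPTA-AM replicate 1, for example, had r of 0.106, 0.107 and 0.114 with its replicates 1, 2 and 3, and -0.120 with replicate 4. Pairs with that group therefore cannot show whether same-numbered libraries deviate together. The replicate block called 5 genes in WT zymosan, where Ddit3 lost its call (adjusted p = 0.0677), 2 for BAPTA-AM and 0 for Mcu-/- against WT untreated. Over all genes, calls higher and lower for BAPTA-AM were 753 and 741, 1741 and 1788 with the groups alone, 1783 and 1929 without Mcu-/- untreated replicate 4, 418 and 461 with the block, and 668 and 1000 by DESeq2's Wald test. For Mcu-/- against WT untreated they were 15 and 26, 57 and 55 by the Wald test, 2 and 3 with the groups alone, 6 and 16 with the block, 12 and 13 with at least 10 counts, and 178 and 213 without that library. For the interaction they were 1779 and 2343, and 3622 and 3417 without it.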
